A study of Homo sapiens with 12 samples.

Results

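The proteasome subunit genes were taken as the RefSeq protein-coding genes of GRCh38.p14 whose symbol is PSMA, PSMB, PSMC or PSMD followed by a number. This gave 39 of 20037 protein-coding genes, on 16 chromosomes. PSMD5, PSMD9 and PSMD10 encode assembly chaperones and are counted here with the subunit genes. The others encode proteins that assemble into the proteasome, the protease that degrades ubiquitin-tagged proteins. Its core particle is a barrel of alpha rings (PSMA genes), which gate the entrance, around beta rings (PSMB genes), which hold the catalytic sites. The regulatory particle caps the barrel, where ATPase subunits (PSMC genes) unfold the substrate and non-ATPase subunits (PSMD genes) bind ubiquitin, remove it or hold the particle together. Most of these genes are expressed in nearly every cell, and the transcription factor NFE2L1 is known to raise them together when proteasome activity falls short.

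Chromatin accessibility was profiled by ATAC-seq in 22Rv1 cells. This established line comes from a human prostate carcinoma and makes the androgen receptor, full-length and truncated. The 12 samples formed 4 groups of 3, labelled as biological replicates. Cells received vehicle, enzalutamide (an androgen receptor antagonist) at 1 µM, OSU-ERb-12 (a ligand of oestrogen receptor beta) at 100 nM, or OSU-ERb-12 plus enzalutamide, for 6 h, and the labels give the genotype WT for every sample. The labels of the last group, called the combination here, state no doses of their own. Each treatment has a single deposited list of regions from the nucleosome-free fraction, with positions on hg38 and no value per library. The enzalutamide list held 25317 regions, the OSU-ERb-12 list 17931 and the combination list 6248. The names of all 3 lists carry the tag neg, which no source used here defines, so each list may hold differences from vehicle in a single direction, and that direction is not known here. The depth of the libraries is unknown from the lists. The cell line could not be checked against marker genes, since the lists give no level for any gene. All results are therefore positions and counts without replicate error, and no test between treatments was possible. The study has a single vehicle group and the lists differ in length, so counts for the 3 treatments are given side by side and were not tested against each other.

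Enzalutamide regions lay at the ends of 16 of the 39 proteasome subunit genes, OSU-ERb-12 regions at 5 and combination regions at 4. A gene end here is the first or the last base of the annotated gene, and a region counted when it reached within 1 kb of it. The 16 genes for enzalutamide were PSMA1, PSMA2, PSMA3, PSMA7, PSMB1, PSMB5, PSMC4, PSMC5, PSMC6, PSMD1, PSMD2, PSMD3, PSMD7, PSMD9, PSMD11 and PSMD13. Those for OSU-ERb-12 were PSMA1, PSMA3, PSMB4, PSMC4 and PSMD2, and those for the combination PSMA3, PSMB4, PSMC5 and PSMD3. As shares these are 41.0% for enzalutamide, where 28.3% of all protein-coding genes held such a region, 12.8% against 7.88% for OSU-ERb-12, and 10.3% against 5.51% for the combination. Each share was above the background, but the 2 smaller ones rest on 5 and 4 genes. When a region was counted only for the gene whose end lay nearest, the shares were 33.3% (13 genes) against 25.3% for enzalutamide, 7.69% (3 genes) against 7.03% for OSU-ERb-12 and 7.69% (3 genes) against 4.85% for the combination. With regions longer than 200 bp alone, 7 subunit genes were left for enzalutamide, 17.9% against 17.4% of all genes, and there the share was at the background. The longer OSU-ERb-12 and combination regions lay at 2 subunit genes each (5.13%), against 2.84% and 2.04%.

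**Figure D1:**
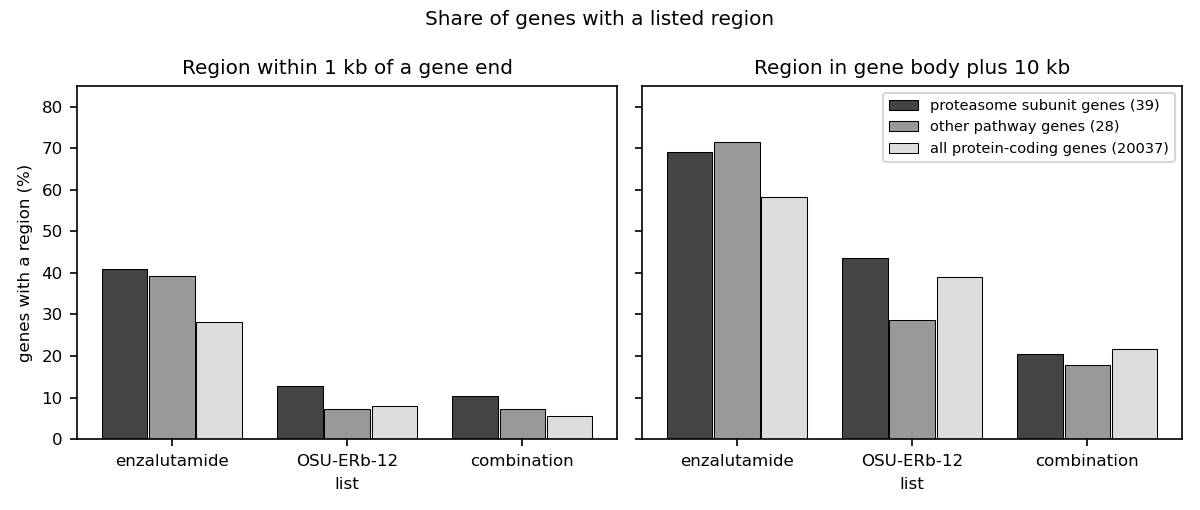
Percentage of genes (vertical axis) with a listed region within 1 kb of a gene end (left) and in the gene body plus 10 kb (right), for the 3 lists; bars are the 39 proteasome subunit genes, the 28 other genes of the pathway and all 20037 protein-coding genes. The subunit genes stand above all genes in the left panel for each list (41.0% against 28.3% for enzalutamide) and slightly below them for the combination in the right panel (20.5% against 21.7%).

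The wider locus was taken as the gene body plus 10 kb. Enzalutamide regions were present at 27 of the 39 genes (69.2%, against 58.3% of all protein-coding genes), an OSU-ERb-12 region at 17 (43.6% against 39.1%) and a combination region at 8 (20.5% against 21.7%). The subunit genes are shorter than most, with a median length of 15314 bp against 24115 bp. Among genes within the length range of the subunit genes (1849 to 138787 bp) the background was 56.7%, 36.6% and 20.0% in the same order of lists. A narrower match took the middle of the length range, from the lower to the upper quartile of the subunit genes (8459.5 to 28034.5 bp), which holds 19 of them. Of these, 15 held an enzalutamide region in the locus (78.9%, against 53.7% of the 5819 protein-coding genes of these lengths), 10 an OSU-ERb-12 region (52.6% against 33.1%) and 5 a combination region (26.3% against 18.2%). At gene ends the same match gave 10 genes for enzalutamide (52.6% against 27.4%), 3 for OSU-ERb-12 (15.8% against 8.83%) and 2 for the combination (10.5% against 5.81%). In the gene bodies alone, 11 of 39 (28.2%) held an enzalutamide region against 41.0% of all genes, 5 (12.8%) an OSU-ERb-12 region against 26.8%, and 3 (7.69%) a combination region against 13.9%. The part of body length in this count was not tested. Within the length range of the subunit genes the background was 38.0%, 23.0% and 11.6%. With the narrower match, 6 of 19 bodies held an enzalutamide region (31.6% against 31.6%), 2 an OSU-ERb-12 region (10.5% against 17.4%) and 2 a combination region (10.5% against 8.97%). No region of any list was found in the locus of 9 subunit genes: PSMA4, PSMB3, PSMB8, PSMB9, PSMC3, PSMD5, PSMD10, PSMD12 and PSMD14. That is 23.1% of the subunit genes, and 29.3% of all protein-coding genes held none. Absence from a list does not show that accessibility stayed the same.

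The loci held 42 enzalutamide, 25 OSU-ERb-12 and 8 combination regions. These correspond to 2.38, 1.41 and 0.453 regions per 100 kb of locus, against 1.18, 0.76 and 0.286 over the loci of all protein-coding genes, where long genes add much sequence away from gene ends. At least 3 enzalutamide regions were held by 3 subunit loci (7.69%), against 13.6% of all protein-coding genes. For OSU-ERb-12 these were 3 loci (7.69%) against 6.32%, and for the combination 0 against 1.01%. The regions were short, with a median of 200 bp for each list, and the longest, at PSMA3, spanned 550 bp. Many of these regions lay nearer to an end of another protein-coding gene than to an end of the subunit gene. They were 22 of the 42 enzalutamide regions, 12 of the 25 OSU-ERb-12 regions and 2 of the 8 combination regions. The matching share over the loci of all protein-coding genes is not given here.

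**Figure D2:**
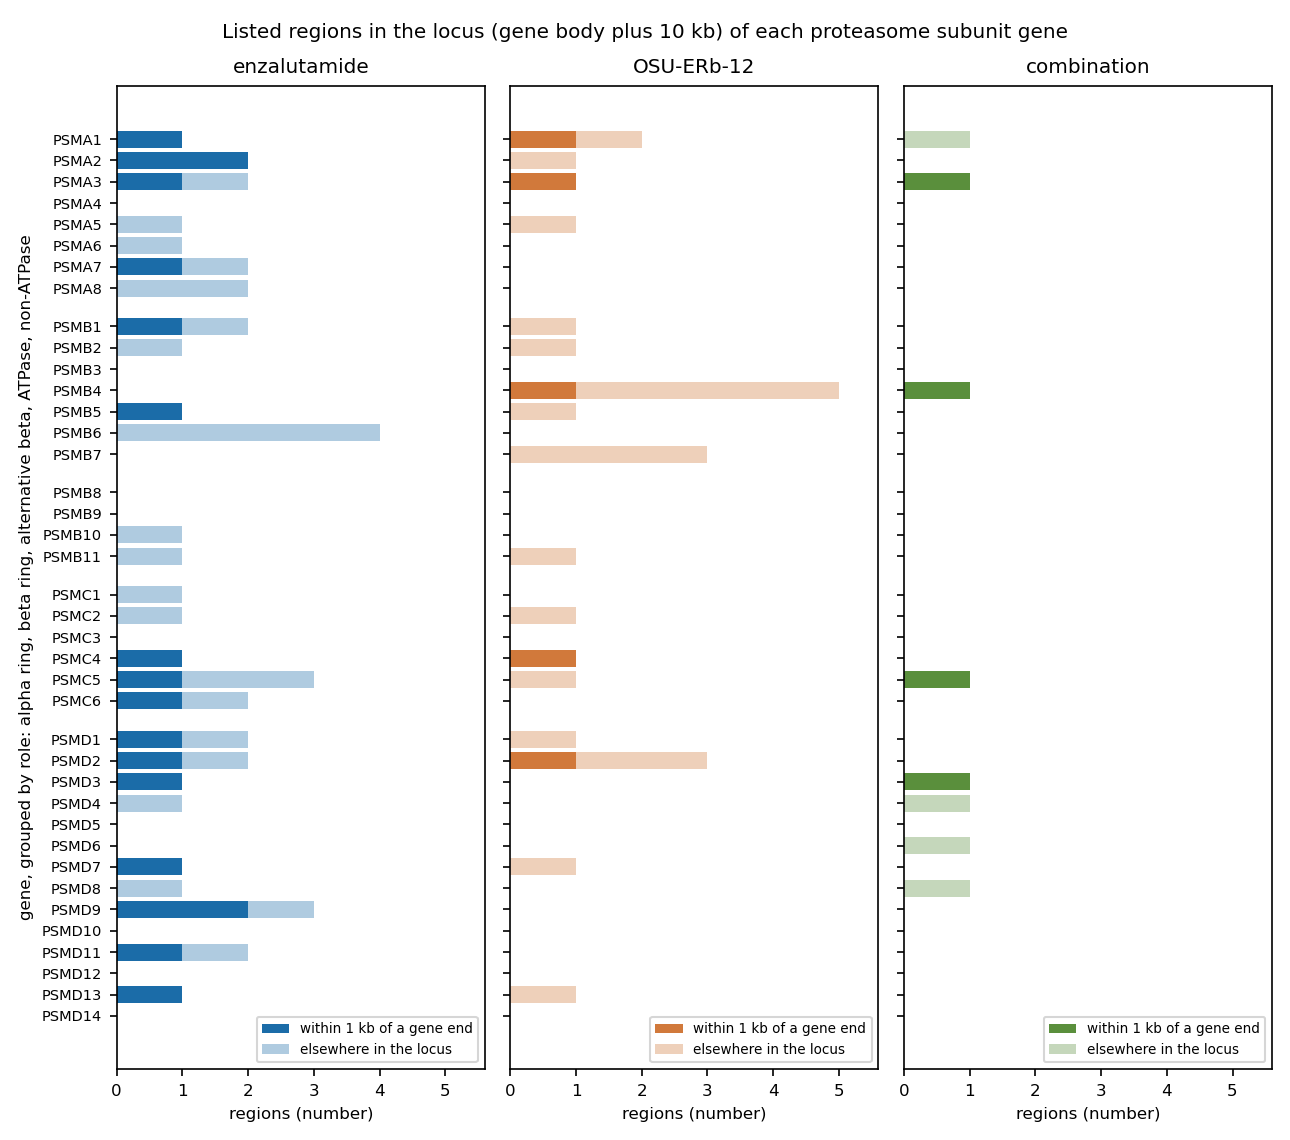
Number of listed regions (horizontal axis) in the locus of each of the 39 proteasome subunit genes (vertical axis, grouped by role), 1 panel per list; dark bars are regions within 1 kb of a gene end and pale bars the rest of the locus. PSMB4 has the longest bar, 5 OSU-ERb-12 regions, and 9 genes have no bar in any panel.

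The alpha ring genes form the gated entrance of the core particle. Of the 8 genes, 4 held an enzalutamide region at a gene end, 2 held an OSU-ERb-12 region there and 1 held a combination region. Of all protein-coding genes 28.3%, 7.88% and 5.51% did, in the same order of lists. Counts by role, here and below, rest on few genes and are descriptions. PSMA3 was the only subunit gene with a gene-end region in all 3 lists. Such regions in all 3 were held by 172 of all protein-coding genes (0.858%). In the wider locus, 3 of the 39 subunit genes (7.69%) held a region of all 3 lists, against 11.0% of all protein-coding genes. The enzalutamide region of PSMA3, at chr14:58244601-58245150, covered the transcript start, the first base of the gene at 58244843. The combination region, at chr14:58244551-58244950, also covered it, and the OSU-ERb-12 region, at chr14:58244501-58244800, ended 43 bp upstream of it. The nearest other protein-coding gene, ACTR10, lay 8865 bp or more from each of the 3 regions.

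PSMA6 has an annotated gene range that begins well upstream of the transcript start in the RefSeq promoter table. It was therefore not among the genes with a gene-end region, although its enzalutamide region, at chr14:35291951-35292300, ended 17 bp upstream of that start. The annotated range of PSMA1 also begins well upstream of its start in that table, but its gene-end regions lay near that beginning and were counted. These regions, at chr11:14644151-14644350 for enzalutamide and chr11:14643951-14644150 for OSU-ERb-12, abutted without a shared base, 489 and 289 bp upstream of the annotated gene. They were 123765 and 123565 bp from the PSMA1 start in the promoter table. Both overlapped PDE3B, a phosphodiesterase gene, 347 and 147 bp from the end of it that faces PSMA1. A combination region lay inside PSMA1, at chr11:14578201-14578400, as did an OSU-ERb-12 region, at chr11:14622751-14622950.

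PSMA2 shares its upstream side with MRPL32, a mitochondrial ribosomal protein gene. Its enzalutamide regions, at chr7:42932401-42932600 and chr7:42933051-42933250, lay 227 and 877 bp upstream of the PSMA2 start and overlapped MRPL32. At PSMA7 the enzalutamide region at chr20:62143501-62143750 lay 107 bp outside the gene and 19 bp from an end of SS18L1. PSMA4 held no region, and those at PSMA5 and PSMA8 were farther away. At PSMA5 an enzalutamide and an OSU-ERb-12 region shared 200 bp, 5792 and 5692 bp outside the gene and inside the neighbouring gene SORT1. PSMA8, an alpha subunit of the testis, held 2 enzalutamide regions, 5769 bp upstream of its start and 7755 bp inside the gene from its end.

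The sequences just upstream of the start are shown for 4 genes in which a listed region reached into the 250 bases before the transcript start, and for PSMB4, in which none did. Capitals mark the bases inside the listed region: the enzalutamide region for PSMA3, PSMA6 and PSMD7, and the combination region for PSMD3. Sequences are from RefSeq, build GRCh38.p14, written 5′ to 3′ on the strand of the gene, and the start is the base after the last one shown.
PSMA3, chr14:58244593-58244842, plus strand: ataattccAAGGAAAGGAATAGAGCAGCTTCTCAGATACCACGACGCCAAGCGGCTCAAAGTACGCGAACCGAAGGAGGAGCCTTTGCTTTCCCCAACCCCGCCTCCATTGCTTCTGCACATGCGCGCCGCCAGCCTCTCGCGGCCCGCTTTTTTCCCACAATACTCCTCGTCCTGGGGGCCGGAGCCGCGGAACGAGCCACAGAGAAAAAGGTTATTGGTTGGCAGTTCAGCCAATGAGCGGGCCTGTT
PSMA6, chr14:35292067-35292316, plus strand: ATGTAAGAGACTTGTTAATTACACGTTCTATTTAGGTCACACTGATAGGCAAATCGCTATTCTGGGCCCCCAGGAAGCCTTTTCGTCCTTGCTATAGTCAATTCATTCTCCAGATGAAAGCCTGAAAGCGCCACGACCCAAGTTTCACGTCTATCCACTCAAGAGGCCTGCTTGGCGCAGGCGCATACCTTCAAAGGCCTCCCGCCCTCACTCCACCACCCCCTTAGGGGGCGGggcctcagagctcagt
PSMD3, chr17:39980557-39980806, plus strand: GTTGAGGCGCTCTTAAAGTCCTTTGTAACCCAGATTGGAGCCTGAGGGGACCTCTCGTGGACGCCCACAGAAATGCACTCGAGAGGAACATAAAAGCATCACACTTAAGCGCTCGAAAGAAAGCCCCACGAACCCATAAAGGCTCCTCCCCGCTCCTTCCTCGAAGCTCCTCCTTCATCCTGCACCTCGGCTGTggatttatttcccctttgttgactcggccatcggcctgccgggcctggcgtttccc
PSMD7, chr16:74296564-74296813, plus strand: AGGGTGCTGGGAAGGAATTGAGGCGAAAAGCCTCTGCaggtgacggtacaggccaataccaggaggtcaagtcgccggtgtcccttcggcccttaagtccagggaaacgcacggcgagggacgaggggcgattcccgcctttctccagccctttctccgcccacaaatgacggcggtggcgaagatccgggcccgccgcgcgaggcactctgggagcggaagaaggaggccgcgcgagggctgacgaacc
PSMB4, chr1:151399323-151399572, plus strand: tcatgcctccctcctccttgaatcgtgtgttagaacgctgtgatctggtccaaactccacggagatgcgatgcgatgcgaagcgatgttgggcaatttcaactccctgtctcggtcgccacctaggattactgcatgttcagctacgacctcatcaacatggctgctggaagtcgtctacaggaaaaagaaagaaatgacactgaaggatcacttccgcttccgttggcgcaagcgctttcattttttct
The region marked by capitals took in 242 of the 250 bases at PSMA3, 234 at PSMA6, 194 at PSMD3 and 37 at PSMD7. At PSMA3 the combination region took in the whole stretch shown and the OSU-ERb-12 region its upstream part. The lower-case bases of PSMA3 lay in both of these. At PSMA3 the CCAAT box, a common promoter element, was found 18 bp upstream of the start and in reverse 35 bp upstream, inside the enzalutamide and the combination region. PSMA6 held the GC box GGGCGG 22 bp upstream and in reverse 49 bp upstream, as well as AGGTCA, the repeat unit of the oestrogen response element, 217 bp upstream, all inside the enzalutamide region. PSMD3 held CCAAT in reverse 217 bp upstream, inside the combination region. At PSMD3 the match TGACTCGGC began 37 bp upstream, in the bases between the combination region and the start. It fits TGACNNNGC, the core of the antioxidant response element that NFE2L1 and NFE2L2 bind. PSMD7 held CCAAT 198 bp upstream, AGGTCA 187 bp upstream and the GC box in reverse 94 bp upstream, all outside its listed region.

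The promoter table holds 300 bases per transcript start, 250 before and 50 from the start on, and has entries for 34 of the 39 genes. PSMA7, PSMB1, PSMB6, PSMB7 and PSMD4 are not in it. Motifs were searched on both strands, in the window of the most upstream start of each gene. TGACNNNGC was present in 8 of the 34 promoters (23.5%), against 14.4% of the 15843 protein-coding genes in the table. CCAAT was present in 17 (50.0% against 36.4%) and GGGCGG in 22 (64.7% against 58.3%). AGAACA, the repeat unit of the androgen response element, was present in 5 (14.7% against 11.2%), and AGGTCA in 4 (11.8% against 11.8%). No match of a motif overlapped a match of another in these promoters. The subunit promoters had a median GC content of 60.8%, against 62.7%. TGACNNNGC was found in 4 of the 14 promoters of genes with an enzalutamide gene-end region and in 4 of the other 20, and GGGCGG in 11 of 14 and 11 of 20. In the same order CCAAT was found in 6 and 11 promoters, AGAACA in 3 and 2, and AGGTCA in 2 and 2. The split is by gene end and not by promoter. PSMA1 and PSMD13 are among the 14, with enzalutamide regions 123765 and 16975 bp from the nearest transcript start. PSMA6 is among the other 20, although its enzalutamide region held its GGGCGG and AGGTCA matches. A match is a string of letters and was not measured as a binding site.

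The 7 constitutive beta ring genes include the catalytic subunits. The locus of PSMB4, a structural subunit of the ring at chr1:151399573-151401937, held 5 OSU-ERb-12 regions, more than any other subunit gene, and the next highest held 3. PSMB4 was noted for these regions when the genes were chosen, so the number is a description. From upstream to downstream they lay at chr1:151395651-151395850, chr1:151396601-151396900, chr1:151402351-151402600, chr1:151404651-151404850 and chr1:151408851-151409150. Together they covered 1250 bp within a span of 13500 bp, with gaps of 750 to 5450 bp. The gene body itself held none of them. The first pair lay 3723 and 2673 bp upstream of the start, and the other 3 downstream of the last base.

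The downstream side of PSMB4 is shared with POGZ, a chromatin factor gene on the opposite strand, so that the 3′ ends of both genes face each other. The region at 151402351 lay between them, 414 bp beyond PSMB4 and 124 bp from the 3′ end of POGZ at 151402724, and those at 151404651 and 151408851 lay inside POGZ. The POGZ locus held 7 OSU-ERb-12 regions, including the 5 of the PSMB4 locus. The combination list held a single region there, at chr1:151402251-151402500, which shared 150 bp with the OSU-ERb-12 region beyond the end of PSMB4. No enzalutamide region lay in the PSMB4 locus. Within 100 kb on either side there were 4 enzalutamide, 11 OSU-ERb-12 and 3 combination regions. At least 5 OSU-ERb-12 regions in the locus were held by 348 protein-coding genes (1.74%), and by 1 of the 39 subunit genes (2.56%). This part of chromosome 1 was dense in listed regions: with 1000 kb on either side of PSMB4 there were 26.5 OSU-ERb-12 regions per Mb, where chromosome 1 as a whole had 9.92 and all chromosomes 5.87. For enzalutamide the same figures were 31.5, 11.2 and 8.21 regions per Mb. The part of this local density in the cluster was not tested.

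**Figure D3:**
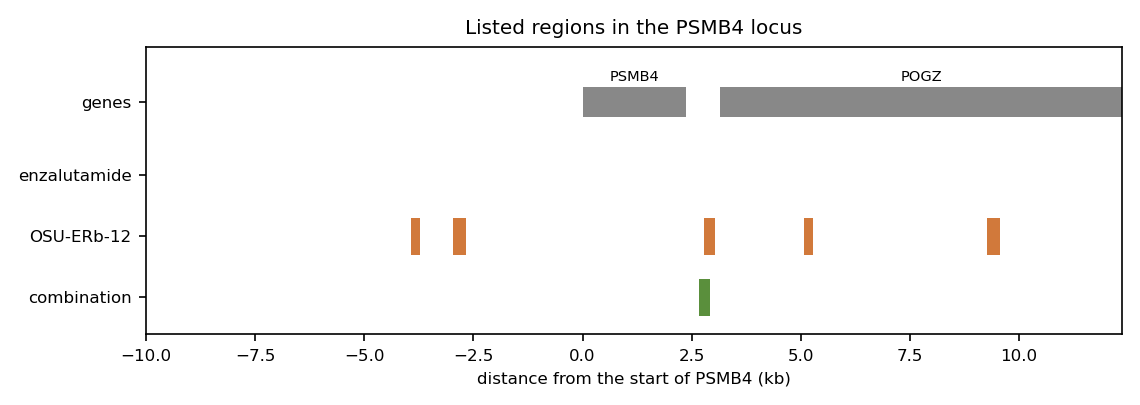
Listed regions in the PSMB4 locus, drawn to scale against the distance from the start of PSMB4 in kb (horizontal axis), 1 row per list, with the bodies of PSMB4 and POGZ in grey; POGZ continues beyond the right edge. The 5 OSU-ERb-12 regions lie on both sides of PSMB4 and none on its body, the combination region overlaps the one just beyond its end, and the enzalutamide row is empty.

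The other beta genes held fewer regions near their ends. PSMB1, a structural subunit, held an enzalutamide region 294 bp outside the gene (chr6:170553601-170553800), in the stretch between it and TBP, the gene of the TATA-binding protein. A further 200 bp, 1344 bp outside PSMB1 and 282 bp from an end of TBP, were listed for enzalutamide (chr6:170554651-170554850) and fell inside a longer OSU-ERb-12 region. PSMB5 encodes the chymotrypsin-like catalytic subunit, the main target of bortezomib. Its enzalutamide region, at chr14:23034301-23034500, lay inside the gene, 400 bp downstream of the nearest transcript start. PSMB6, the caspase-like catalytic subunit, held 4 enzalutamide regions in its locus, all 5414 bp or more from its ends and each within 149 bp of an end of GLTPD2, C17orf114 or PLD2. PSMB7, the trypsin-like catalytic subunit, held 3 OSU-ERb-12 regions and none of the other lists. Of these, the regions at chr9:124369551-124369750 and chr9:124400051-124400250 lay inside the gene, and the third, at chr9:124350501-124350700, lay 2765 bp outside it, in NEK6. PSMB2 held an enzalutamide region 1425 bp upstream of its start and an OSU-ERb-12 region 2141 bp beyond its other end, and PSMB3 held none.

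The 4 alternative beta genes replace catalytic subunits in immune cells and the thymus. None had a gene-end region in any list, and PSMB8 and PSMB9, inducible by interferon, had no region in their loci. Of all 39 subunit genes 56.4% had no gene-end region in any list, and of all protein-coding genes 66.0%. With 4 genes, the absence is a description. PSMB10 held an enzalutamide region 5806 bp away. PSMB11, the thymic subunit, lies next to PSMB5, and its locus held the enzalutamide region inside PSMB5 as well as an OSU-ERb-12 region at chr14:23045201-23045550, 1141 bp beyond its end. These 2 regions were counted in the loci of both genes. The region beyond PSMB11 fell just outside the 1 kb window, as did the enzalutamide region of PSMC1, 1129 bp from its end, while that of PSMD13, at 967 bp, was just inside.

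The 6 ATPase genes encode the ring that unfolds substrates. An enzalutamide region lay at an end of PSMC4, PSMC5 and PSMC6, where 28.3% of all protein-coding genes held one. At PSMC4 the enzalutamide region (chr19:39970501-39970750) and the OSU-ERb-12 region (chr19:39970501-39970700) began at the same base and ended 415 and 465 bp upstream of the start. At PSMC5 the enzalutamide region (chr17:63826601-63826850) contained the combination region (chr17:63826651-63826850), and both ended 581 bp upstream of the start, inside FTSJ3, a gene of ribosome biogenesis. Beyond the other end of PSMC5, inside SMARCD2, lay 2 more enzalutamide regions and an OSU-ERb-12 region between them, at 2032, 2932 and 2532 bp. PSMC6 held an enzalutamide region 151 bp downstream of its start (chr14:52707351-52707550). PSMC2 held an enzalutamide and an OSU-ERb-12 region on opposite sides, 3756 and 6474 bp away.

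Of the 14 non-ATPase genes, 7 had an enzalutamide region at a gene end, where 28.3% of all protein-coding genes did. The other lists each had 1 such gene, PSMD2 for OSU-ERb-12 and PSMD3 for the combination, where 7.88% and 5.51% of all did. PSMD1, a scaffold of the base, held an enzalutamide region 234 bp downstream of its start (chr2:231057101-231057300) and an OSU-ERb-12 region deep in the gene, 6377 bp from its end. PSMD2, a scaffold that docks ubiquitin shuttle proteins, was the only non-ATPase gene with gene-end regions for both single agents. The OSU-ERb-12 region at chr3:184299501-184299700 lay 260 bp downstream of its first start, and the enzalutamide region at chr3:184299851-184300050 lay 610 bp downstream of that start and 531 bp upstream of the second start in the promoter table. PSMD2 also held OSU-ERb-12 regions at chr3:184306301-184306500, inside the gene, and at chr3:184316401-184316750, in the neighbouring translation factor gene EIF4G1.

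Among the lid genes, PSMD3 had regions on either side of its start. The combination region (chr17:39980551-39980750) ended 57 bp upstream and the enzalutamide region (chr17:39981201-39981500) began 394 bp downstream, and they did not overlap. PSMD7, the partner of the deubiquitinase PSMD14, held an enzalutamide region 214 bp upstream of its start (chr16:74296401-74296600) and an OSU-ERb-12 region inside the gene, 1538 bp from its end. PSMD11 held an enzalutamide region 841 bp downstream of its start (chr17:32445351-32445550), and PSMD13 the region beyond its end named above (chr11:253951-254200). PSMD14 itself held none.

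PSMD9, which encodes a chaperone for assembly of the base, held 3 enzalutamide regions and none of the other lists. They lay 161 bp downstream of the start (chr12:121888951-121889450), within the gene (chr12:121903201-121903400) and across its last base (chr12:121918001-121918350). PSMD5 and PSMD10, the other assembly chaperone genes counted with the subunit genes, held no region. PSMD4, a ubiquitin receptor, lies on chromosome 1 like PSMB4 and held no OSU-ERb-12 region. Its enzalutamide region lay 8284 bp and its combination region 7822 bp away. PSMD6 held a combination region alone, 1751 bp from its end, while PSMD8 held a combination region inside the gene and an enzalutamide region 4227 bp beyond it.

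Around transcript starts, most regions flanked the start and did not cover it. Of 14 enzalutamide regions within 1 kb of a start of the 34 genes in the promoter table, 1 covered it (PSMA3), 7 lay upstream and 6 downstream. Over all protein-coding genes in the table, 20.2% of 5371 such pairs of gene and region covered the start, 34.5% lay upstream and 45.4% downstream. The median distance was 314 bp at subunit genes and 237 bp at all genes. The OSU-ERb-12 list held 3 such regions at subunit genes, with 2 upstream and 1 downstream, and the combination list 3, with 1 covering the start and 2 upstream. By gene, 13 of the 34 (38.2%) had an enzalutamide region within 1 kb of a start, against 29.2% of the genes in the table. The OSU-ERb-12 list and the combination list each reached 3 genes (8.82%), against 6.77% and 5.12%.

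**Figure D4:**
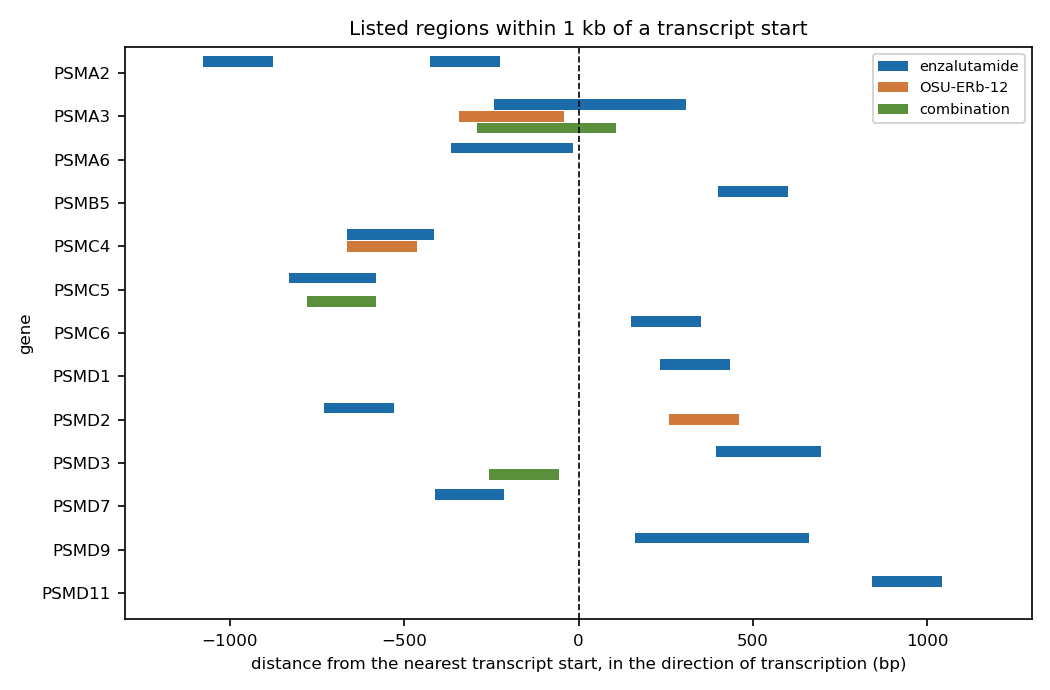
Listed regions within 1 kb of a RefSeq transcript start of proteasome subunit genes, drawn to scale as distance from the nearest start in bp along the direction of transcription (horizontal axis), with 1 row per gene and a colour per list. The dashed line is the start. The enzalutamide and combination regions of PSMA3 cross it, and the other regions lie to either side.

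Some regions of different lists overlapped in these loci. The matching share over the loci of all protein-coding genes is not given here, so the counts describe the subunit loci alone. Of the 42 enzalutamide and the 25 OSU-ERb-12 regions, 4 pairs overlapped by at least 1 bp, at PSMA3, PSMA5, PSMB1 and PSMC4. Of the 42 enzalutamide and the 8 combination regions, 2 pairs did, at PSMA3 and PSMC5, and of the 25 OSU-ERb-12 and the 8 combination regions 2 pairs, at PSMA3 and PSMB4. Because the treatments have a single vehicle group, these overlaps are given as positions only.

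The 28 other genes of the pathway, named as activators, assembly factors, partners, ubiquitin shuttles and regulators, were counted in the same way. A gene-end region was present at 11 genes (39.3%) in the enzalutamide list and at 2 (7.14%) in each of the other lists, against the 28.3%, 7.88% and 5.51% of all protein-coding genes. In the gene body 15 of the 28 held an enzalutamide region (53.6%, against 28.2% of the subunit genes and 41.0% of all), and 13 of the 25 with a promoter entry held one within 1 kb of a transcript start (52.0%, against 38.2% and 29.2%). In the OSU-ERb-12 and the combination list, 3 bodies each held a region (10.7%, against 26.8% and 13.9% of all). Within 1 kb of a start each of these lists reached 2 genes (8.0%, against 6.77% and 5.12%). The middle of the subunit length range holds 7 of the 28. Among these, 3 bodies held an enzalutamide region (42.9% against 31.6%), and 1 gene held one at an end (14.3% against 27.4%). DDI2, a protease that cleaves NFE2L1 into its active form, held 2 enzalutamide regions, across its start (chr1:15617351-15617550) and 643 bp downstream (chr1:15618101-15618400), and the OSU-ERb-12 region chr1:15618101-15618350 lay inside the latter. UBE3C, a ubiquitin ligase that associates with the proteasome, held enzalutamide regions 276 bp upstream and 725 bp downstream of its start, the first with the same boundaries (chr7:157138451-157138650) in the combination list. PAAF1, an assembly factor, held an enzalutamide region at either end, 49 and 237 bp outside the gene. The genes with a single gene-end region, for enzalutamide, included ADRM1, a ubiquitin receptor (346 bp upstream of the start), NFE2L1 itself (chr17:48048701-48049050, across its second transcript start), PSME4, a proteasome activator (243 bp downstream of the start), PSMG2, an assembly chaperone (638 bp upstream of the start), and PSMG3, another assembly chaperone (532 bp inside the gene from the nearest end). NFE2L2 and the assembly factor POMP held no region in their loci.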

How the data were processed

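ATAC-seq was made from 12 samples of 22Rv1 cells in 4 groups of 3. Per the labels' protocols, ATACSeqQC separated the nucleosome-free fraction. Per the submitters' processing notes, FastQC and Trimmomatic were used and the build is hg38. Not given in the sources used here are the region caller, its threshold, the test, the direction of change, pooling and any shift for the transposase. The authors deposited 1 list of regions per treatment, in which every score is 0. Boundaries lie on a 50 bp grid and the shortest region is 200 bp, so distances are no finer than that grid. Lists were matched to groups by the prefix shared with the sample titles (WT for OSU-ERb-12, which the labels do not explain).

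Genes came from the RefSeq table of GRCh38.p14, the build of the files. Strand, transcript starts and promoter sequences came from the RefSeq promoter table. Distances are between a region's nearest base and the first or last base of the gene, and coordinates are 1-based. Counts used Python 3.11.15 with pandas 2.3.3, numpy 2.4.6 and matplotlib 3.10.9, and the counting was tested on planted regions. Background shares are over all protein-coding genes. No p-value was computed.

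The subunit genes, the 28 other genes and the settings were chosen with earlier results of these data known. Named are the subunit genes with a gene-end region or with 3 or more regions of a list in the locus, PSMB4, and up to 8 other pathway genes with the most gene-end regions (ties by alphabet). Others are named by role or for absence, after their values were seen. Counting by nearest gene and the quartile length match were also added then. Upstream sequence is shown for PSMB4 and for genes with a region in the 250 bases before the start, except PSMA2, where that stretch overlaps MRPL32.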

Additional observations from a re-analysis of the deposited data

How the results depend on the processing

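Of 50 counts under other settings, 29 stayed within 1.5 times the reported count and 21 did not. With regions longer than 200 bp alone, gene-end counts were 7, 2 and 2 genes in the enzalutamide, OSU-ERb-12 and combination lists, and locus counts 15, 9 and 3 genes. Regions in the loci then numbered 19, 10 and 3, those at PSMB4 were 3, and other pathway genes with a gene-end region 7, 1 and 0. This setting removes close to or over 1 in 2 regions of each list (45.7%, 66.1% and 68.0%). The matching locus shares over all protein-coding genes are not given here, so the locus counts have no background with this setting. For gene ends the background is the one given in the Results. The share of other pathway genes was above it for enzalutamide and OSU-ERb-12, the latter with 1 gene, and below it for the combination. With the gene body alone 11, 5 and 3 subunit genes held a region. With 5 kb around gene ends, 11 subunit genes and 5 other pathway genes held an OSU-ERb-12 region, where 20.1% of all protein-coding genes did. OSU-ERb-12 counted 3 genes with transcript starts only, and 3 when a region counted for the nearest gene only, which was added after seeing the data. With neighbours within 500 bp counted as shared, 8 enzalutamide regions in subunit loci matched an OSU-ERb-12 region, against 4. Merging regions within 1 kb, a 50% overlap and 50 kb loci moved no count by over 1.5 times. No paired analysis was possible because the lists hold no value per library, and for the same reason no replicate could be left out. The depth per library is unknown, and it limits which regions could be listed.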
